A study of Mus musculus with 6 samples.

Results

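The 3 arrays titled as E12.5 wildtype heart were described here on their own, out of 6 arrays in the series. They were chosen by title alone. On them 18193 genes were ranked by mean log2 intensity. A gene with several probe sets was read at the one with the highest mean. No comparison between genotypes was made. Per the labels, each array held biotin-labelled total RNA of a single mouse embryonic heart of wildtype genotype at E12.5, frozen before extraction and labelled in 1 cycle. The arrays are called a, b and c as in their titles, and no mouse strain was stated in the sources used. The series also holds 3 arrays titled Sp3 knockout, which were not used. Each array was taken as 1 replicate, and with 3 of them every spread is given as the SD over 3 values.

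As background, the embryonic heart at this stage is a beating, chambered organ whose muscle cells are rich in transcripts of actins, myosins and troponins. The fetal liver lies close below it and is at this time the main blood-forming organ. Its epithelial cells secrete albumin and alpha-fetoprotein and surround dividing red cell precursors. The earliest, primitive red cells come from the yolk sac and carry embryonic globins, while the definitive red cells made in the liver carry adult globins. Blood also fills the chambers of the heart, so globin transcripts alone do not mark an organ.

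The label was checked against defining markers, and the arrays went against it. Transcripts of albumin, alpha-fetoprotein and red cell genes lay near the top of the scale on all 3 arrays, while most contractile transcripts of heart muscle lay below the middle. Alb, serum albumin, stood at 13.41, 13.32 and 13.28 in log2 intensity on a, b and c. Afp, alpha-fetoprotein, the main plasma protein of the fetus, stood at 13.32, 13.27 and 13.25. Klf1, the transcription factor that drives red cell genes, stood at 12.03, 12.16 and 11.92. Actc1, the actin of heart muscle, stood at 8.77, 6.35 and 7.70. Alb was the gene of rank 9, Afp of rank 11, Klf1 of rank 141, and Actc1 lay at the 72.9 percentile. The SDs were 0.07 for Alb, 0.03 for Afp, 0.12 for Klf1 and 1.21 for Actc1. Alb and Afp lay close to 13.64, the largest log2 value on these arrays, and whether signals so near the top were saturated was not tested, so their small SDs are no measure of how alike the samples were. The samples are called wildtype arrays below. In bulk RNA, fewer cells of a type and less RNA per cell cannot be told apart, and no reference array of a known tissue was analysed here.

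The 3 arrays were similar in overall intensity and were not copies of each other. Median intensities were 24.7 on a, 22.6 on b and 26.8 on c, and 0 probe sets held identical values in any pair. Over the 18193 genes the log2 values of a and b had a Pearson correlation of 0.930, a and c of 0.929, and b and c of 0.925, given across genes, which are not independent replicates. Over the 4548 genes at or above the 75th percentile, called bright genes below, the same correlations were 0.983, 0.975 and 0.960, so b and c were the least alike pair. The intensity of a probe set also depends on its sequence, so an order of genes is an order of brightness and not of molecules.

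Among the 40 brightest genes, 26 coded for ribosomal proteins and 14 for other proteins. The brightest gene was Rps3a1, a protein of the small ribosomal subunit, at 13.49, 13.39 and 13.43. It was followed by Rpl7a at a mean of 13.43, Rpl38 at 13.40 and Eef1a1, the elongation factor that brings tRNA to the ribosome, at 13.39. The other ribosomal proteins ran from Rpl35 at a mean of 13.38 to Rps24 at 12.98 and included Rpl4 at 13.32, Rplp0 at 13.27, Rps18 at 13.23 and Rpl13a at 13.20. Between them lay Rps29, Rpsa, Rpl41, Rps14, Rps10, Rps2, Rps7, Rplp2, Rps28, Rps4x, Rpl22, Rpl37a, Rps20, Rpl7, Rpl27, Rps3 and Rpl6. Besides Eef1a1, the translation-linked protein Tpt1 stood at 13.37 with an SD of 0.01. The liver-secreted proteins Alb and Afp and the embryonic beta-like globins Hbb-y and Hbb-bh1 were the tissue-restricted genes of the group. Car2, the carbonic anhydrase of red cells, stood at 13.06, 13.02 and 13.02, and Fth1, the ferritin heavy chain that stores iron, at 12.98, 13.05 and 12.76. Cd24a, a surface protein of immature blood cells and epithelia, stood at 13.07, 13.08 and 12.86, and Pcna, the sliding clamp of DNA replication, at 13.08, 13.04 and 13.00. The rest were Hspa8, a chaperone, at a mean of 13.23, Uqcrb, a subunit of respiratory complex III, at 13.15, Actb, cytoplasmic actin, at 13.14, and Lgals1, a galectin, at 12.94.

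The order within this group was mostly not resolved. The 40 means spanned 0.51, from 12.93 to 13.44, and only 1 of the steps between neighbours, from Tpt1 to Rps29, was larger than the larger of their SDs. The largest SD among the 40 was 0.26, for Hbb-bh1. There were 81 genes within 1 log2 unit of the brightest. Of the 40 probe sets, 32 had names ending in _a_at, _s_at or _x_at, which mark probes shared between transcripts, and 14 of these were _x_at, whose probes may also read unrelated transcripts. Where a gene had several probe sets they could disagree. Afp had 3 with means of 12.91, 13.28 and 12.99, another at 6.25 and another at 1.18.

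**Figure D1:**
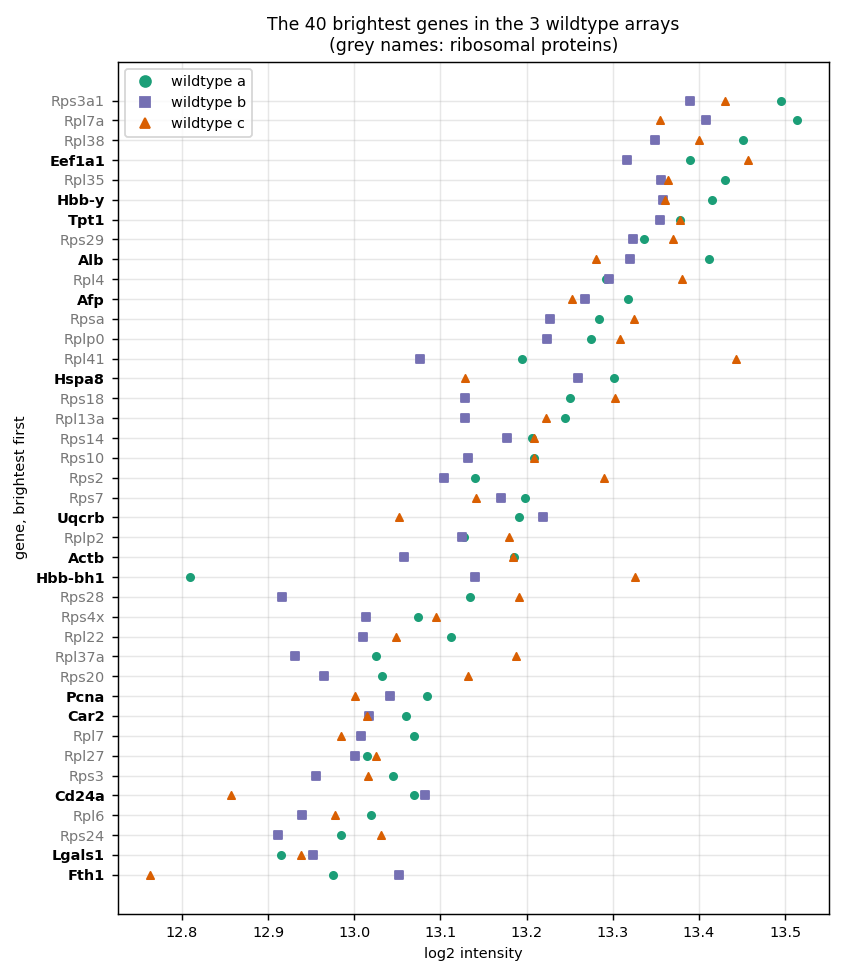
Log2 intensity (x axis) of the 40 brightest genes (y axis, brightest at the top) on wildtype arrays a, b and c, 1 point per array. The means fall from 13.44 to 12.93, and the arrays of most genes overlap their neighbours in rank; Hbb-bh1 has the widest spread, at 12.81, 13.14 and 13.33.

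Plasma proteins made by liver cells were among the brightest transcripts. Of 23 listed genes 21 were measured, and 19 of these lay in the top 10% of all genes, where 10% lie by definition. Their median lay at the 96.8 percentile, at 97.1, 96.5 and 96.3 on a, b and c taken alone. After Alb and Afp came Ttr, transthyretin, a carrier of thyroid hormone, at 12.80, 12.53 and 12.26, and the lipoprotein Apoa2 at 12.57, 12.54 and 12.34. Apoa1, the main protein of high-density lipoprotein, stood at 12.56, 12.48 and 12.19, and Rbp4, the carrier of retinol, at 11.95, 12.00 and 11.79. Array c was the lowest in each of these, but not in Serpina1b, which lay between Apoa1 and Rbp4 at 11.87, 12.38 and 11.95. The fibrinogen chains Fgg, Fgb and Fga had means of 10.83, 10.64 and 10.24, so the genes of 1 protein complex lay close together. Clotting and protease genes were lower on the scale but still in the top 10%, with plasminogen (Plg) at a mean of 10.20, antithrombin (Serpinc1) at 9.84 and prothrombin (F2) at 9.57. The 2 dimmest members were Apoh, a phospholipid-binding protein, at 9.17, 9.13 and 7.33, and Fetub, a fetuin, at 3.91, 3.39 and 3.90. Apoh was low on array c alone, and Fetub was low on every array.

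Sequences of the 250 bases before the start of Alb and Afp are shown because these genes lead the list. They were taken from RefSeq promoters on GRCm38.p6, with Alb at chr5:90460620-90460869 and Afp at chr5:90490464-90490713, both on the plus strand of chromosome 5. Capitals mark matches on either strand. They are to the C/EBP letters TTGCNNAA in both, to the CCAAT box in Alb, and in Afp to the HNF1 letters TTAATNATT and, close to the start, to the TATA box, which was searched as TATAAA.
Alb: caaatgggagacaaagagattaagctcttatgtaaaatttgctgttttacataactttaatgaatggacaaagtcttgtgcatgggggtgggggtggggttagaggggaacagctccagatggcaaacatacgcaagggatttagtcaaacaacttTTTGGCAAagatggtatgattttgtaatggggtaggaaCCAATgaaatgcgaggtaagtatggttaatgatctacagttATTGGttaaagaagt
Afp: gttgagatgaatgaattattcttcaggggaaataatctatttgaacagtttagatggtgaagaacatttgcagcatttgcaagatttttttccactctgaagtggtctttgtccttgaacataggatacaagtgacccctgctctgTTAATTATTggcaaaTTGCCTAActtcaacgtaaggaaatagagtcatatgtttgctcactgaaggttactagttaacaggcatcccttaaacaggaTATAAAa
Afp also held a CCAAT match on the other strand that overlaps the HNF1 match and is not capitalised, and Alb held 2 matches to the CACCC box, searched as CCACNCCC, also left in lower case. Over the plasma protein list, 19 of the 21 measured genes were found among the RefSeq promoters, with 22 promoters, and the C/EBP letters stood in 11 of them, 50%, against 9.56% of all 32851 promoters. The HNF1 letters stood in 1 of the 22, 4.55%, against 1.40% of all. Only exact letters were counted, and Alb held ttaatgatc, which differs from the HNF1 letters at its last base alone. These matches describe letters in a window and were not tested as binding sites.

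Transcription factors of hepatocytes were spread around the middle of the scale, far below the plasma proteins. Of 13 measured members 0 lay in the top 10% and 4 lay below the 50th percentile, where 50% of all genes lie. Their median was at the 54.1 percentile. Hnf4a, a nuclear receptor that specifies hepatocytes, was the brightest at 8.75, 8.76 and 8.52. Cebpa, a leucine zipper factor of liver and myeloid cells, stood at 7.89, 7.99 and 7.69. Foxa3 and Foxa1, pioneer factors of the endoderm, had means of 6.99 and 6.84. The dimmest were Onecut1 at a mean of 4.79 and Nr1i2, a receptor for foreign compounds, at 4.53.

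Enzymes of the mature liver were mostly dim. Of 16 measured members 11 lay below the 50th percentile and 1 in the top 10%, and the median was at the 33.8 percentile. The exception in the top 10% was Glul, glutamine synthetase, at 9.33, 9.35 and 9.49, an enzyme that many tissues express. Otc, ornithine transcarbamylase of the urea cycle, stood at 8.53, 8.25 and 8.13. Gys2, liver glycogen synthase, stood at 7.58, 7.45 and 6.96, and Hpd, an enzyme of tyrosine breakdown, at 6.30, 6.13 and 5.58. Cps1, the enzyme that opens the urea cycle, had a mean of 3.91. The dimmest were Cyp1a2, a cytochrome P450, at a mean of 1.58, and G6pc, glucose-6-phosphatase, at 0.80, 2.05 and 1.73. At such levels the arrays scatter widely, and Cyp1a2 ran from -0.82 on c to 3.70 on b.

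Bile duct and visceral endoderm markers did not stand out. Of 7 bile duct genes measured, 5 lay below the 50th percentile. Sox4, a factor of many embryonic tissues, was the only member in the top 10%, at 9.98, 9.58 and 10.01, while the duct keratins Krt7 and Krt19 had means of 5.72 and 5.31, Sox9, a factor of duct cells, of 3.96, and Cftr and Muc1 of 2.59 and 1.29. The visceral endoderm and yolk sac list, whose cells also make Afp and apolipoproteins, had its median at the 49.7 percentile, with 6 of 11 members below the 50th. Cited1 led at a mean of 8.28, followed by Gata6 at 8.0, Dab2 at 7.78 and Spink1 at 7.58. The endocytic receptors Lrp2 and Cubn had means of 4.29 and 3.77, and the dimmest members were Apoa4 at 2.34 and Slc13a4 at 1.54.

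Embryonic globins were among the brightest genes. Hbb-y, the embryonic beta-like chain, stood at 13.41, 13.36 and 13.36. Hbb-bh1, another embryonic beta-like chain, stood at 12.81, 13.14 and 13.33, and Hba-x, the embryonic alpha-like chain, at 12.45, 12.89 and 13.26. Hbb-bh1 and Hba-x shared an order in which a was lowest and c highest, while Hbb-y differed little between arrays. Of 13 listed genes 6 were measured by a probe set of their own, and 4 of these lay in the top 10%. Of the adult chains measured on their own, Hbb-b2 stood at 10.72, 10.81 and 8.79, Hba-a2 at a mean of 4.70 and Hba-a1 at 2.27. The Hbb-b2 values come from an _x_at probe set. Its plain probe set stood at 1.16, 0.90 and 4.08 and was highest on c. Adult chains were also read by 4 probe sets annotated to several adult globin genes at once, which name no single gene. Of the 3 for alpha chains, 1 stood at 13.27, 13.23 and 13.33, another at 13.27, 13.20 and 13.35, and the last at 13.64, 12.67 and 12.39. The first pair differed little between arrays and were highest on c, while the last was highest on a and lowest on c. The 1 for beta chains stood at 13.06, 13.07 and 13.30. Probe sets annotated to adult globins were thus also at the top of the scale. Their names mark shared probes, so which chains they read cannot be told apart. The low values of Hba-a1 and Hba-a2 belong to their own probe sets only. Array c was lowest in the brighter probe set of Hbb-b2 but highest in its plain one and in the shared beta probe set. For both chains the probe sets thus disagreed on the order of the arrays.

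The starts of Hba-x and Hbb-y are shown as the embryonic pair, from RefSeq on GRCm38.p6. Hba-x lies on the plus strand at chr11:32276350-32276599 and Hbb-y on the minus strand at chr7:103853208-103853457, each printed 5′ to 3′ in its own direction. Capitals mark the GATA letters TGATAA or their other strand in both, the TATA box in Hba-x and the CCAAT box in Hbb-y.
Hba-x: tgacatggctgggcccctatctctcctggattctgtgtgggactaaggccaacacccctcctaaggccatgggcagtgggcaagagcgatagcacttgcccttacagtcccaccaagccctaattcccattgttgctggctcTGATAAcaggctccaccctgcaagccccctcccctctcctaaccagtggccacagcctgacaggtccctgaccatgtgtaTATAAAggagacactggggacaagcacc
Hbb-y: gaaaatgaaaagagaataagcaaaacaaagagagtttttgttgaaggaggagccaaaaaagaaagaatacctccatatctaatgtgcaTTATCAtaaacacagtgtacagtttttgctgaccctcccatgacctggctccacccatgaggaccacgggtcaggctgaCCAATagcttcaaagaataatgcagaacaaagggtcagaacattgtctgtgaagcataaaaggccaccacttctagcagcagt
All 4 promoters found for the 6 measured globins held AGATAA or TGATAA on either strand, against 16.6% of all promoters. With 4 promoters this is a description of these genes only.

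Transcription factors of the red cell line were far brighter than those of hepatocytes. All 15 listed genes were measured, 10 lay in the top 10% and 0 below the 50th percentile, and the median was at the 93.7 percentile. After Klf1 came Lmo2, a bridging protein of the erythroid complex, at 10.95, 11.14 and 11.00. Nfe2, which acts on globin genes, stood at 10.49, 10.71 and 10.11, and Tal1, a helix-loop-helix factor of blood cells, at 10.46, 10.83 and 10.004. Gata1, which red cells need to mature, stood at 9.91, 10.14 and 9.95. Klf3, a repressor of the same family as Klf1, stood at 10.20, 10.30 and 10.005, and Myb, a factor of dividing blood precursors, at 9.80, 9.91 and 10.20. Zfpm1, the partner of Gata1, had a mean of 9.89, Foxo3 of 9.71, the repressor Gfi1b of 9.38, Lyl1, a relative of Tal1, of 9.12, and Ldb1, a bridging protein, of 8.84. Bcl11a, a repressor of embryonic globins, stood at 8.56, 8.14 and 8.86. The dimmest were Sox6 at 8.34 and Cbfa2t3 at 6.82. In 10 of the 15 the highest array was b, where b was the highest in 28% of all genes.

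Proteins of the red cell membrane and the enzymes of heme synthesis were brighter still. Of 15 membrane and surface genes measured, 13 lay in the top 10%, with the median at the 96.6 percentile. Tfrc, the transferrin receptor that brings in iron, stood at 12.44, 12.49 and 12.14. Slc4a1, the band 3 anion exchanger, stood at 12.42, 12.45 and 12.15. Slc2a1, a glucose transporter, stood at 11.93, 12.21 and 10.96, and Ermap, a red cell membrane protein, at 11.49, 11.72 and 11.64. The dimmest were Sptb, a spectrin chain, at 9.20, 9.40 and 8.63, and Aqp1, a water channel, at 8.58, 8.32 and 8.77. Array c was the lowest in 13 of the 15, where c was the lowest in 29.1% of all genes, and b was the highest in 14, against 28% of all.

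Of 12 heme and mitochondrial iron genes measured, 9 lay in the top 10%. Urod, a late enzyme of heme synthesis, stood at 12.33, 12.43 and 12.06, Slc25a37, the mitochondrial iron importer, at 12.17, 12.38 and 11.63, and Fech, which inserts the iron, at 11.93, 12.38 and 11.65. Alad, the second enzyme of the pathway, stood at 11.93, 11.54 and 11.30. Alas2, the red cell form of the first enzyme, stood at 11.68, 12.18 and 10.72, which was the widest spread of the list. The dimmest were Slc25a38, a mitochondrial carrier, at a mean of 9.12, and Alas1, the form used outside red cells, at 6.76, 7.31 and 7.64, where array c was the highest. Array c was the lowest in 9 of the 12, where c was the lowest in 29.1% of all genes. The start of Alas2 is shown because it had the widest spread of the list. It lies on the plus strand at chrX:150547167-150547416, and capitals mark, from left to right, the TATA box, the GATA letters and the CACCC box, each read on the other strand.
Alas2: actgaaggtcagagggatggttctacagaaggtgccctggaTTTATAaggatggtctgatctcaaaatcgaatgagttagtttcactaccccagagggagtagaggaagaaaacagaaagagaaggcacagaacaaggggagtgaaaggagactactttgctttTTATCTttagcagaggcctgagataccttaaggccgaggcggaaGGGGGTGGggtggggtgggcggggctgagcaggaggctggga
The GATA letters stood in 7 of 13 promoters of the membrane list, 53.8%, and in 3 of 13 of the heme list, 23.1%, against 16.6% of all promoters. The CACCC box letters stood in 30.8% and 15.4% of them, against 15.9% of all.

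Genes listed for other blood lineages lay at graded levels, and whether the dim ones were detected is not known. The list of megakaryocytes and platelets had its median at the 81.7 percentile. Pf4, platelet factor 4, stood at 11.88, 11.96 and 11.88 and Ppbp, another platelet chemokine, at 11.28, 11.22 and 11.03, with an SD of 0.05 and 0.13. Clec1b, a platelet receptor, and Thbs1, thrombospondin, followed at means of 9.27 and 8.84, and the dimmest were Gp6 at 5.31 and Mmrn1, which stood at 6.26, 6.58 and 0.88. The granulocyte and mast cell list had its median at the 55.03 percentile, with wide differences between members. S100a8 stood at 10.85, 11.31 and 10.31, S100a9 at 10.41, 11.12 and 9.89, Mpo, myeloperoxidase, at 9.86, 10.21 and 10.03, and Ngp at 8.62, 9.39 and 8.32, with b highest in each. The mast cell proteases Cma1 and Mcpt4 had means of 2.89 and 1.95.

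Macrophage genes had their median at the 65.5 percentile. Csf1r, the receptor for macrophage colony-stimulating factor, led at 9.58, 9.42 and 9.73, followed by Lyz2 at a mean of 8.86, Tyrobp at 8.38 and the complement subunit C1qb at 7.95. Genes known from resident macrophages of the adult liver were spread widely. C1qc and C1qa, the other complement subunits, had means of 7.55 and 7.34, Marco of 6.04 and Timd4 of 5.34, while the 3 dimmest of the list were Clec4f at 4.17, Vsig4 at 0.67 and Cd163 at 0.23. Stem and progenitor genes had their median at the 58.4 percentile, led by Hhex at 7.81, 7.80 and 7.71, Runx1 at 7.44, 6.94 and 8.09, Kit at 7.19, 7.23 and 8.0 and Meis1 at 7.05, 6.68 and 7.47, with Flt3 and Procr at means of 4.85 and 4.73. Array c was the highest in 9 of these 14 genes, where it was the highest in 42.3% of all, and in 4 of 14 once each array was centred on its median, where it was the highest in 25.4% of all. Lymphocyte genes were the dimmest of the 37 lists, with the median at the 15.4 percentile and all 13 members below the 50th. Cd79b and Cd8a led at means of 5.04 and 4.98, followed by Pax5, a B cell factor, at 3.60 and Il7r, a cytokine receptor, at 3.23, and Cd4 and Cd3d were last at 1.16 and 0.58.

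Most contractile genes of heart muscle were below the middle of the scale. All 23 listed genes were measured, 18 lay below the 50th percentile and 1 in the top 10%, and the median lay at the 36.1 percentile, at 39.1, 28.4 and 37.7 on a, b and c. The member in the top 10% was Tpm1, a tropomyosin that non-muscle cells also make, at 9.51, 9.28 and 9.66. Actc1 came next, then Tnnc1, the troponin C shared with slow muscle, at 8.0, 7.19 and 6.78, and Tnni1, the troponin I of slow and embryonic muscle, at 7.57, 6.77 and 7.14. Myl7, the atrial myosin light chain, stood at 7.35, 6.78 and 6.42. In these 4 genes array a was the highest. Tnnt2, the troponin T of heart muscle, stood at 5.60, 3.56 and 3.85, and Ttn, titin, at 5.30, 4.26 and 4.82. The dimmest were Myl2, the ventricular light chain, at 1.52, 2.81 and 1.49, and Myh6, the alpha myosin heavy chain, at 3.28, 2.41 and -1.63. Myh7, the beta heavy chain of the embryonic ventricle, had a mean of 2.80 with an SD of 1.10.

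Array b was the lowest in 16 of the 23 contractile genes, where it was the lowest in 40.5% of all genes, and in 14 of 23 after centring each array on its median, which put b lowest in 24.6% of all. In 14 of them a was the highest, where a was the highest in 29.7% of all genes. The difference between arrays was over 1 log2 unit in 14 members, where 33% of all genes differed so much. That share depends on level. In 10 classes of all genes by level it was 45.8% in the fourth from the bottom, which held the list median, and 91.8% in the second. The count for the list was not matched for level. Of the 23, 14 had a mean of at least 4, and b was the lowest in 10 of these 14, 71.4%, where it was the lowest in 43.3% of all genes at that level.

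**Figure D2:**
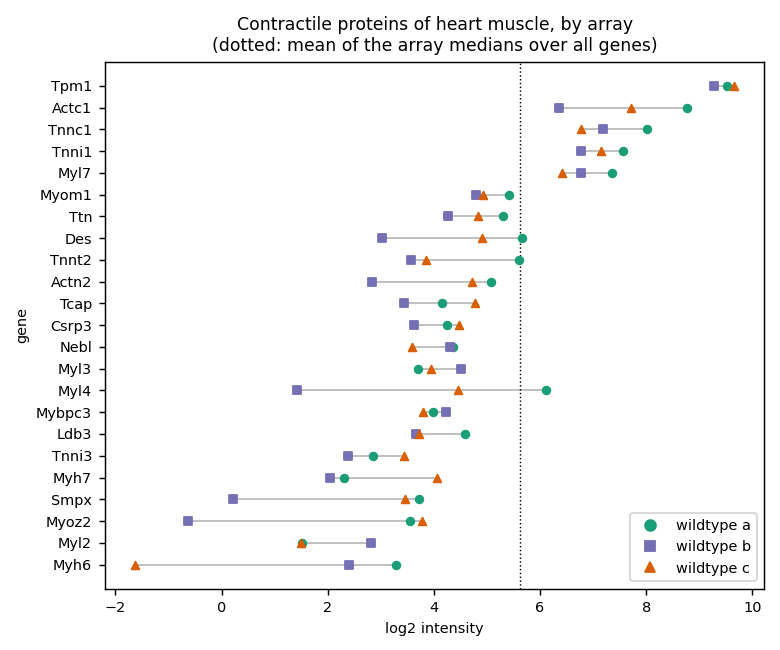
Log2 intensity (x axis) of the 23 contractile genes (y axis, by mean) on wildtype arrays a, b and c, 1 point per array, with the mean of the array medians as a dotted line. Tpm1, Actc1, Tnnc1, Tnni1 and Myl7 lie to the right of it on every array, and Myl4, Smpx, Myoz2 and Myh6 spread over more than 1 unit.

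The start of Actc1 is shown because it is the heart actin used to check the label. It lies on the minus strand at chr2:114052876-114053125 of GRCm38.p6. Capitals mark the CArG box, searched as CC and GG around a run of A or T letters, and ATTGG, the other-strand form of the CCAAT box.
Actc1: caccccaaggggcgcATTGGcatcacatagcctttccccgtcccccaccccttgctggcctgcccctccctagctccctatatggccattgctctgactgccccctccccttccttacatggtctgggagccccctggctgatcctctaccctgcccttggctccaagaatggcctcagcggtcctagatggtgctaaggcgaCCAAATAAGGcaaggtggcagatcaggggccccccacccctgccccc
The CArG box stood in 7 of 31 promoters of the contractile list, 22.6%, against 1.47% of all promoters.

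Transcription factors of the heart were divided. Of 17 members 12 lay below the 50th percentile, 0 in the top 10%, and the median was at the 45.5 percentile. Mef2c, which is also made by blood and endothelial cells, stood at 8.28, 8.06 and 8.53, Hand2, also a factor of other mesenchyme, at 7.98, 7.67 and 8.36, Gata6, also a factor of endoderm, at 8.07, 7.80 and 8.13, and Gata4 at 6.71, 6.52 and 6.90. Array b was the lowest in each of the 4. Tbx5 and Nkx2-5, which specify heart muscle, had means of 3.10 and 3.03, and Irx4, a ventricular factor, of 1.74. In 11 of the 17 the lowest array was b, beside 40.5% of all genes, and in 9 of the 17 after median centring, beside 24.6% of all.

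Genes of calcium handling, conduction and secretion in the heart were also mostly dim. Of 12 calcium and conduction genes measured 10 lay below the 50th percentile. Atp2a2, the calcium pump of the sarcoplasmic and endoplasmic reticulum that most cells express, stood at 10.85, 10.92 and 10.77, and Gja1, connexin 43, at 9.12, 8.38 and 8.68. Srl and Hrc had means of 5.46 and 4.68. Ryr2, the calcium release channel of heart muscle, had a mean of 2.86, Pln, phospholamban, of 3.23, and Gja5, an atrial connexin, of 0.67. Of the secreted factors, Nppa, the atrial natriuretic peptide, stood at 3.81, 3.40 and 4.14, Nppb at 3.88, 0.73 and 3.38, and Bmp10, made by trabecular muscle, at 0.76, 0.67 and 0.36. The growth factors Tgfb2, Bmp2 and Bmp4, which many tissues make, were brighter at means of 6.73, 5.92 and 5.14.

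Endothelial and mesenchymal genes lay in between. The general endothelial and endocardial list had its median at the 59.2 percentile, led by Egfl7 at 7.99, 8.11 and 8.56, Plvap at a mean of 7.49, Esam at 7.46 and Eng at 7.39, with Nfatc1, a factor of the endocardium, at 5.53 and Flt1 at 5.36. Markers of sinusoidal endothelium had their median at the 74.7 percentile, with Lyve1 at 8.50, 8.43 and 7.99, Maf at a mean of 8.21, Oit3 at 8.11 and Mrc1 at 7.94, and Fcgr2b and Clec4g at 4.60 and 3.43. The list of liver stellate and septal mesenchyme had its median at the 75.2 percentile, with Reln, reelin, at 10.63, 10.66 and 10.67. Ptn followed at a mean of 9.19, then Pdgfra at 8.12 and Colec10 at 8.02, while Ngfr, a nerve growth factor receptor of stellate cells, had a mean of 5.93 and Lrat, which stores retinol, of 3.68. The valve cushion and matrix list had its median at the 77.2 percentile. Its brightest members were collagen and fibronectin genes of connective tissue in general, with Col3a1 at 11.37, 11.27 and 11.43, Fn1 at a mean of 10.23, Col1a2 at 9.86 and Tgfbr3, a receptor for transforming growth factor beta, at 9.22. Hapln1 and Has2, which build the hyaluronan jelly of the cushions, had means of 3.85 and 3.18. The lowest array was b in 9 of its 14 members, beside 40.5% of all genes, but in 4 of 14 after median centring, beside 24.6% of all. Among genes of the epicardium and mesothelium, which also cover the liver, Podxl had a mean of 8.83, Upk3b of 7.51, Tcf21 of 7.36 and Aldh1a2 of 6.89. Tbx18 stood at 4.62 and Msln at 1.64. Of smooth muscle genes, Acta2 led at 9.41, 8.92 and 9.18, followed by Tagln at a mean of 6.93, Mylk, the myosin light chain kinase, at 6.90 and Actg2 at 6.02, and Cnn1 and Lmod1 were last at 2.21 and 1.08.

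Lists of organs outside heart, liver and blood were dim. The neuron and neural crest list had its median at the 27.1 percentile with all 13 members below the 50th, led by Sox10 at a mean of 5.10 and Dcx at 4.77. Tfap2a and Stmn2 followed at 4.13 and 3.81, and Elavl3 and Foxd3 were last at 1.90 and 1.87. The lung and foregut list had its median at the 28.2 percentile, with Foxf1 alone above the 50th at 6.98, 6.88 and 7.21. It was followed by Barx1, Sftpb and Shh at means of 5.15, 4.36 and 4.03, with Sftpc and Nkx2-1 last at 1.55 and 1.33. All 11 skeletal muscle genes lay below the 50th percentile. Of these, Acta1 ran over 6.48, 3.11 and 5.07 and Myh3, the embryonic myosin heavy chain, over 6.00, 2.88 and 4.54, with b the lowest in both. Array b was the lowest in 7 of the 11 on the deposited scale and after median centring, beside 40.5% and 24.6% of all genes, and the 11 lay at levels where all genes scatter. Pax3 and Myod1, factors of muscle precursors, had means of 4.54 and 4.45, and Myf5 and Myf6 were last at 0.57 and -0.05. Of 8 epidermal genes 6 lay below the 50th percentile, and Dsp, desmoplakin of cell junctions, led at 7.66, 7.57 and 7.55. Krt10 and Perp had means of 5.74 and 5.49, and Krt5, Trp63 and Krt15 of 3.86, 2.91 and 0.95.

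**Figure D3:**
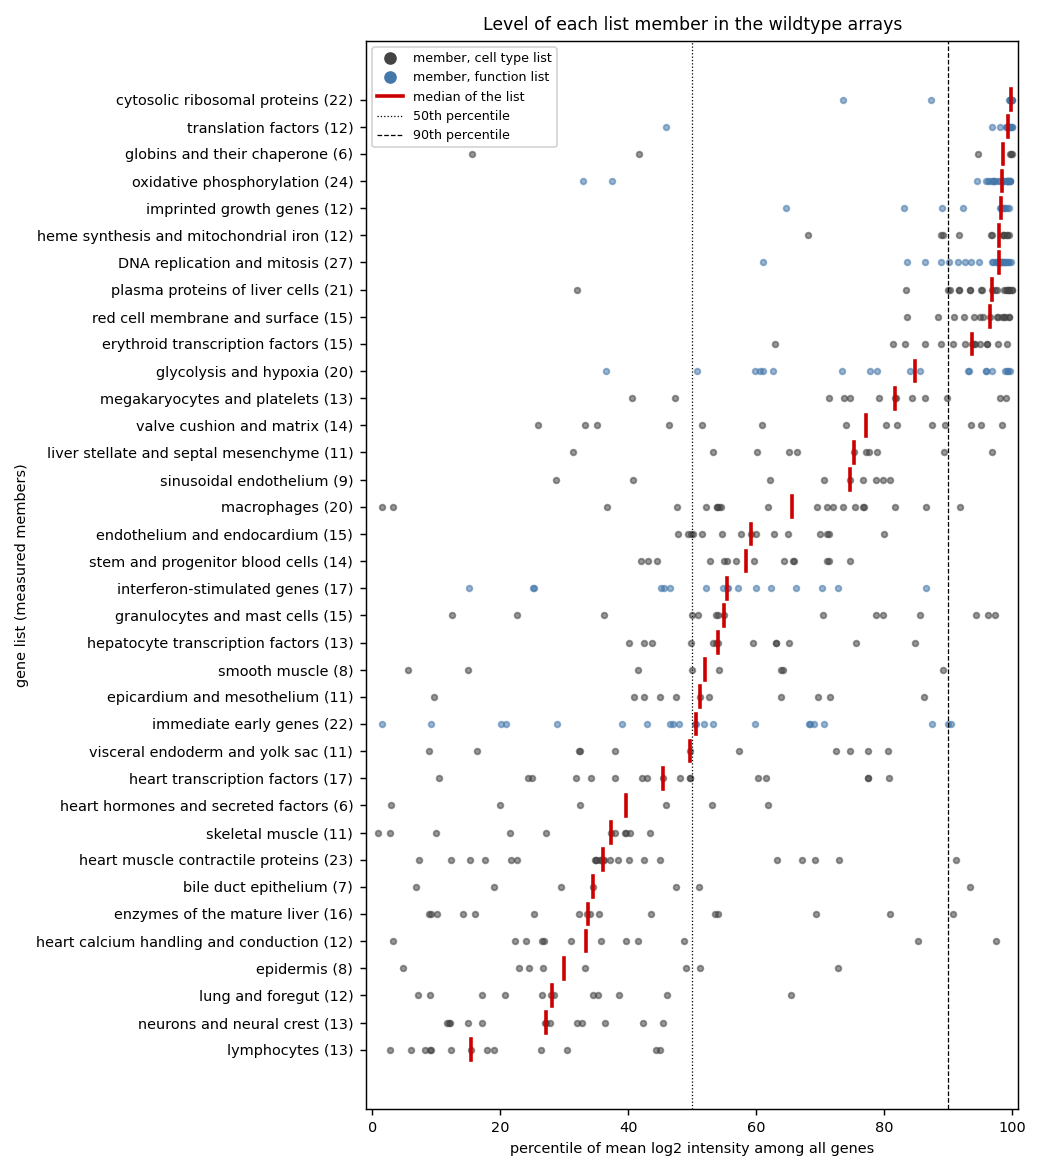
Percentile of mean log2 intensity among all 18193 genes (x axis) for each measured member of each gene list (y axis, number measured in brackets), with a red bar at the list median and lines at percentiles 50 and 90. Plasma protein, globin and red cell lists lie at the right, with medians from 93.7 to 98.6, and the contractile list has its median at 36.1.

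Transcription factors of these lineages were also ranked in 1 order. Of 54 measured factors of hepatocytes, red cells, heart and blood progenitors, 14 of the 15 brightest belonged to the red cell list and 1, Hnf4a, to the hepatocyte list. Mef2c followed as number 16, Hand2 as 17 and Gata6 as 18. Neighbours in this order often lay within their spread, as with Nfe2 at 10.44 and Tal1 at 10.43, whose SDs were 0.30 and 0.42.

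Genes of cell growth were bright as a group. Cytosolic ribosomal proteins had their median at the 99.8 percentile, with 20 of 22 measured members in the top 10% and Rps6 and Rpl37 lower, at means of 8.94 and 7.67. Translation factors had their median at the 99.3 percentile, with Eif5a at a mean of 12.71 and Pabpc1, the poly(A)-binding protein, at 12.64, both below Eef1a1 and Tpt1, and with Eif4a2 and Eef1a2 last at 10.67 and 5.14. Genes of DNA replication and mitosis, the machinery of dividing cells, had 23 of 27 members in the top 10%. After Pcna came Mcm7, a helicase subunit, at 12.26, 12.22 and 12.36, Mki67, a mitotic chromosome protein, at 12.34, 12.28 and 12.08, and Rrm2, a subunit of ribonucleotide reductase, at 12.02, 11.87 and 11.85. The dimmest were Gins2 at a mean of 8.55 and Tyms at 6.67. Oxidative phosphorylation genes had 22 of 24 members in the top 10%, led by Cox7a2 at a mean of 12.77, Cox6a1 at 12.64, Cox5b at 12.56 and Atp5b, a subunit of ATP synthase, at 12.35. Imprinted growth genes had their median at the 98.3 percentile, with Plagl1 at 12.52, 12.41 and 12.34, Igf2, the fetal growth factor, at 11.97, 12.16 and 11.72, Grb10 at a mean of 11.64 and Peg3 at 11.59, and with Nnat and Phlda2 at 8.51 and 6.97. Glycolysis and hypoxia genes had their median at the 84.9 percentile. Ldha led at 12.52, 12.70 and 12.61, with Pgk1 at a mean of 12.15, Tpi1 at 11.99 and Aldoa at 11.66, and Adm and Car9 were last at 5.66 and 4.15. In 15 of these 20 b was the highest, where b was the highest in 28% of all genes, and in 13 a was the lowest, where a was the lowest in 30.3% of all genes. After median centring a was the lowest in 8 of the 20, beside 30.5% of all genes, and c in 12, beside 44.9%. Immediate early genes, which rise within minutes of handling or stress, had their median at the 50.5 percentile, with Dusp1 at 9.50, 9.78 and 8.79, Btg2 at a mean of 9.28, Myc at 8.96 and Ier2 at 7.42. Fos stood at 4.06, 5.38 and 3.77, and Egr2 and Fosb were last at means of 1.59 and 0.23.

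The letters of general promoter elements varied from list to list, with no single division between growth and tissue genes. The GC box, searched as GGGCGG on both strands, stood in 32.7% of all promoters and in 53 of 98 promoters of the 100 brightest genes, 54.1%. It stood in 19 of 24 promoters of the replication list, 79.2%, in 45.5% of those of ribosomal proteins, 50% of translation factors and 33.3% of oxidative phosphorylation. Among tissue lists it stood in 59.1% of the promoters of erythroid factors, 53.8% of the heme list and the same share of the membrane list, but in 13.6% of those of plasma proteins and 12.9% of contractile genes. The CCAAT box stood in 79.2% of the replication promoters, 50% of oxidative phosphorylation, 40.9% of plasma proteins, 27.3% of ribosomal proteins and 18.8% of translation factors, against 33.8% of all. The TATA box stood in 0 of the 24 replication promoters, 27.3% of the plasma protein promoters, 4.55% of erythroid factors and 3.23% of contractile genes, against 12.4% of all.

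The spread between arrays followed the level. Over all genes the median SD was 0.304. In 10 classes of equal size by level it was 0.102 in the brightest, 0.331 in the fifth from the bottom and 1.18 and 1.38 in the dimmest pair. The highest and lowest array lay over 1 log2 unit apart in 6012 of 18193 genes, 33%, but in 74 of 4548 bright genes, 1.63%. Differences between dim genes are therefore less certain than those between bright ones.

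The 15 bright genes of least spread had SDs at or below 0.009. Eif4a1, the RNA helicase of translation start, stood at 12.41 on every array, followed by Stk4, a kinase, at 9.46, 9.45 and 9.46, and Tle5, a corepressor, at 8.92 on each. Anapc5, Ndufa13, Pcbp1, BC003965, Clint1, Psmd5, Rnf26, Trim28, Etnk1, Higd2a, Hpcal1 and Emc6 completed the 15.

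Among the 15 bright genes of largest spread, with SDs from 0.808 to 1.85, array c was the lowest in 12 and b in 3. Of all 4548 bright genes, c was the lowest in 29.0% and b in 40.8%. Mid1, a ubiquitin ligase, had the largest SD, at 9.08, 6.03 and 9.36, and was low on b. Igtp, an interferon-induced GTPase, stood at 9.22, 8.61 and 6.55, Irgm1, of the same family, at 8.45, 8.67 and 6.74, and Irf9, a factor of the interferon response, at 8.49, 8.55 and 6.73. Ifitm3, an interferon-induced membrane protein, stood at 9.33, 9.56 and 7.70, and Rnf213 at 9.13, 9.72 and 7.53. Tmcc2, a transmembrane protein, stood at 11.26, 11.85 and 9.41, Xpo7, a nuclear exportin, at 10.60, 10.86 and 9.29 and Tent5c, a poly(A) polymerase, at 10.20, 10.67 and 8.91. Hbb-b2 was low on c at its brighter probe set but not at its plain one, as given above. Apoh, Apol8 and Ypel5 were also lowest on c. Ccne1, cyclin E1, at 9.89, 8.10 and 9.90, and Stox2, at 8.38, 7.07 and 8.53, were low on b.

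**Figure D4:**
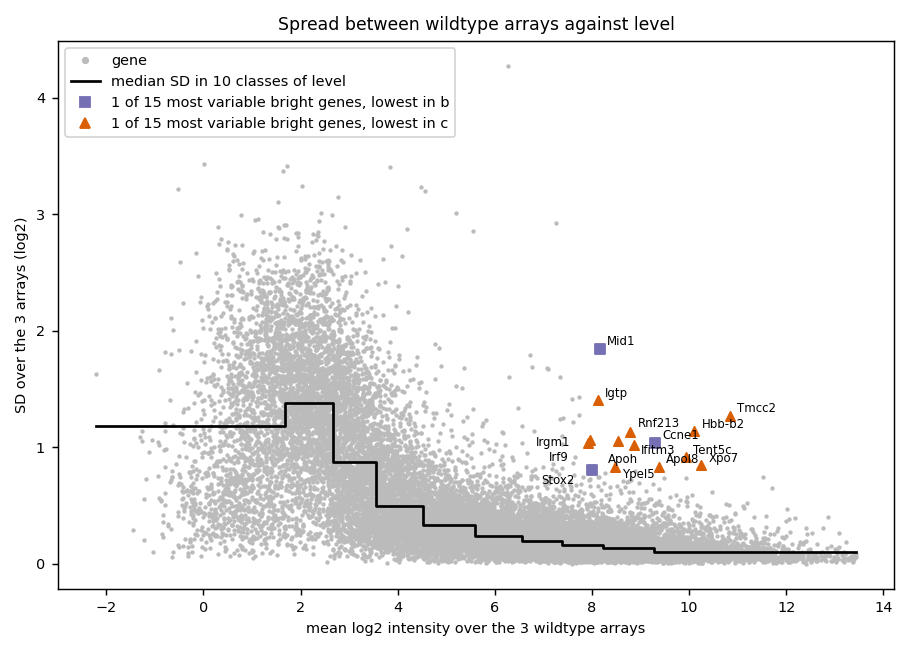
SD over the 3 wildtype arrays (y axis, log2 units) against mean log2 intensity (x axis) for all 18193 genes, with the median SD in 10 classes of level as a black line and the 15 bright genes of largest SD marked by the array in which they were lowest. The median falls from 1.18 and 1.38 in the dimmest classes to 0.102 in the brightest. Of the 15 marked genes 12 are lowest on c, where c is the lowest in 29.0% of all bright genes.

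Counting bright genes in which 1 array lay over 1 log2 unit from both others gave c the most. Array c was lower than both others in 21 genes, 0.462% of the 4548, and higher in 2, 0.044%. Array b was lower in 6, 0.132%, and higher in 1, 0.022%, and array a was apart in 0. Besides those named, the 21 held Fbxo38, Lgals9, Fabp4, Fhdc1, Ifi35, Dnaja4, Ube2l6, Gpcpd1, Ube2h and Uba7. Zbtb44, at 7.62, 7.84 and 9.0, and Sox11, a factor of embryonic tissues, at 8.66, 8.23 and 9.76, were higher on c. The 6 lower on b were Mid1, Ccne1, Stox2, Igfbp5 at 8.37, 7.0 and 8.43, Igf1 at 8.54, 7.27 and 8.58, and Gas1 at 9.13, 7.81 and 8.95, and Stfa2l1, at 7.73, 8.75 and 7.35, was higher on b.

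Interferon-stimulated genes, which cells switch on after virus or interferon, were lowest on c in all 17 measured members. The median departure of the list from its gene means was 0.54 on a, 0.91 on b and -1.43 on c, against c being the lowest in 29.1% of all genes. After centring each array on its median, c was the lowest in 44.9% of all genes and still in 17 of 17 of the list. Ifi27 stood at 8.13, 8.67 and 6.00, Bst2, which tethers virus particles, at 7.96, 8.29 and 5.98, and Usp18, which removes ISG15 from proteins, at 7.82, 8.27 and 5.17. Oas1a stood at 7.07, 7.34 and 4.44 and Ifit1 at 5.78, 5.91 and 3.47. The dimmest members were Mx1, at 4.20, 4.35 and 0.81, and Zbp1, at 2.26, 3.99 and 0.39. Array b was the highest in 15 of the 17, where b was the highest in 28% of all genes. Thus a and b also differed in order but lay close together in most members. The cause was not tested. The start of Ifit1 is shown as an example of the list. It lies on the plus strand at chr19:34640639-34640888 of GRCm38.p6, and capitals mark 3 matches to TTCNNTTTC, the other-strand form of GAAANNGAA (ISRE core), of which the leftmost pair overlap.
Ifit1: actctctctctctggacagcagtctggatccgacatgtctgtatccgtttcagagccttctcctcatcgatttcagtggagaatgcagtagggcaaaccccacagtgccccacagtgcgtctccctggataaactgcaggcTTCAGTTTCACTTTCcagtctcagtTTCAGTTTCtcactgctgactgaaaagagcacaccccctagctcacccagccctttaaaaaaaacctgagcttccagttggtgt
The letters stood in 7 of 12 promoters of the list, 58.3%, against 7.13% of all promoters. This motif was chosen after the pattern was seen.

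Other lists leaned the same way on c by less. Array c was the lowest in 18 of 21 plasma proteins, 13 of 15 red cell membrane genes and 9 of 12 heme genes, with median departures of -0.17, -0.30 and -0.19. After median centring the counts were 20, 13 and 11, beside 44.9% of all genes, against 29.1% on the deposited scale. Embryonic globins Hbb-bh1 and Hba-x went the other way and were highest on c. On array b the list departures were -0.49 for contractile genes, -0.19 for heart transcription factors and -0.85 for skeletal muscle. They were also negative for hepatocyte transcription factors at -0.20, bile duct genes at -0.35 and smooth muscle genes at -0.32. A low departure on b was thus not particular to heart lists. Red cell membrane genes had a departure of 0.26 on b. The share of all genes lowest on b was 40.5% on the deposited scale and 24.6% after median centring, so the lean of small departures on b depends on the scale. Counts on c depend on it too. Centring put c lowest in 19 of 22 ribosomal proteins and 17 of 24 oxidative phosphorylation genes, against 2 and 9 on the deposited scale.

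**Figure D5:**
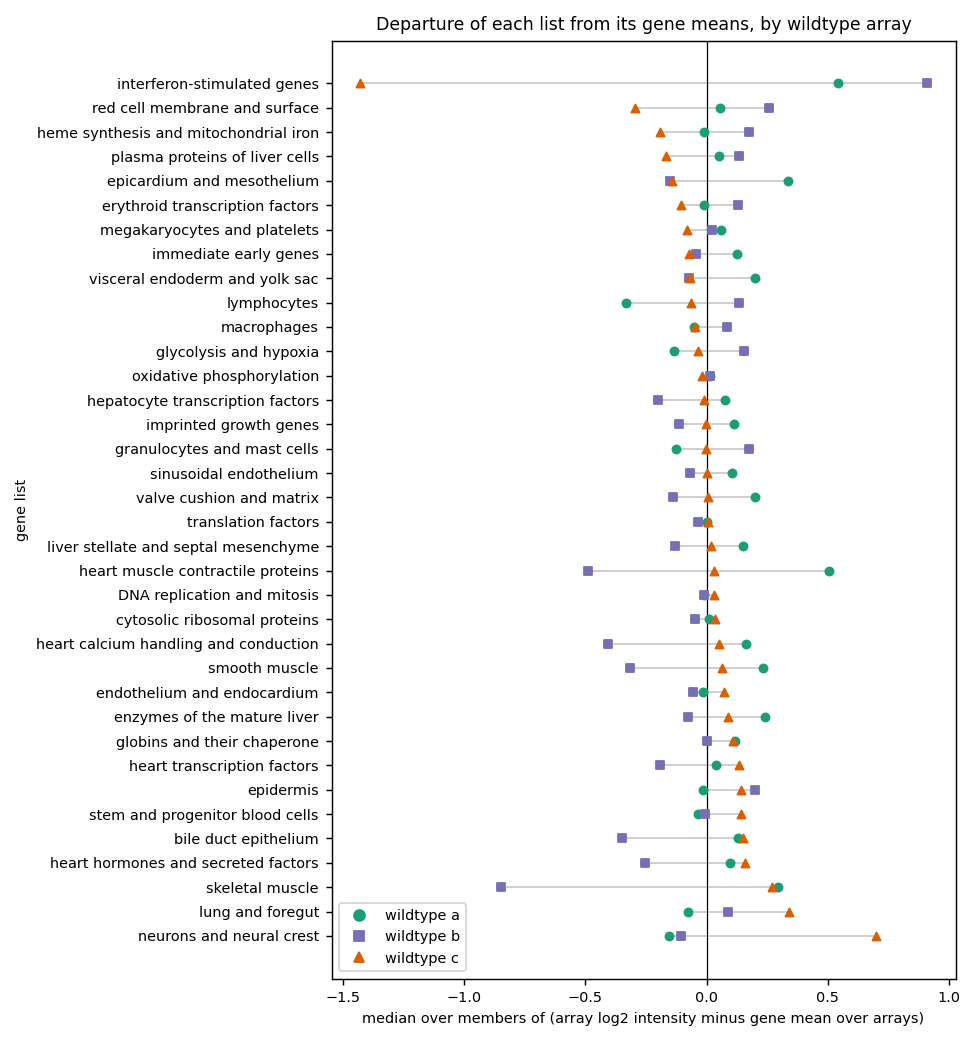
Median over the members of each list (y axis) of the array's log2 intensity minus the gene's mean over the 3 wildtype arrays (x axis, log2 units, deposited scale), 1 point per array. Interferon-stimulated genes are at 0.54 on a, 0.91 on b and -1.43 on c, the widest gap of any list drawn.

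Sex-linked transcripts set a apart from b and c. Xist, the RNA that silences an X chromosome in female cells, stood at 10.63, 5.80 and 5.35. The Y-linked genes Eif2s3y, at 1.34, 8.88 and 8.60, Kdm5d, at 2.25, 7.01 and 7.37, and Uty, at 3.45, 6.13 and 6.05, had the opposite order. Array a thus carried high Xist and low Y-linked transcripts and b and c the reverse, while the interferon-stimulated genes set c apart from a and b. In the heme list a lay between the others, with median departures of -0.01 on a, 0.18 on b and -0.19 on c.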

How the data were processed

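The deposited table holds linear intensities, 1 per probe set and array, between 0.0574 and 12768 on the wildtype arrays. GCOS and RMA are listed in the submitters' processing notes. Their versions and roles, so how the authors made the intensities, and a genome build are not given in the sources used here. Of 45101 probe sets 64 controls were left out. The platform annotation gave 1 gene for 34945 of the other 45037, several for 932 and none for 9160, and 34741 of the first were matched by identifier to RefSeq genes of GRCm38.p6, with 0 symbols changed. Log2 was taken with no further scaling. Percentiles, ranks and SDs over the 3 arrays were computed in Python 3.11.15 with pandas 2.3.3 and numpy 2.4.6, and tested on simulated data. No statistical test was run. The members and all 37 gene lists were chosen with earlier results of these data known. Named genes were the 4 markers, the 40 brightest genes, the 4 brightest and 2 dimmest of each list, the 15 brightest of 4 lists of transcription factors, the 15 bright genes of largest and of smallest SD, and the sex genes; other members were named after their values were seen. Promoters were the 250 bases before RefSeq starts, searched on both strands. Alternatives were quantile normalization, median centring, 16 units added before log2, genes under 4 left out, the mean of probe sets, plain probe sets first and each array left out. The ISRE core, the split of bright genes by array and the list counts by scaling were added after seeing the data.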

Additional observations from a re-analysis of the deposited data

How the results depend on the processing

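Apart from the shares by array below, quantile normalization and adding 16 units before log2 kept the main values, except that the median SD over all genes was 0.189 with the units added, against 0.304. Leaving out genes under 4 removes dim genes from the reference and also dim members from the lists. It kept 20 of 21 plasma proteins, 5 of 6 globins, 14 of 23 contractile genes and 12 of 17 heart factors. Medians in this setting are therefore over fewer and brighter members where a list lost some. The list medians then lay at percentiles 95.5 for plasma proteins, 99.6 for globins and 90.3 for erythroid factors. Those of contractile genes and heart factors lay at 9.99 and 22.7. In that setting 14 plasma proteins, against 19 before, and 0 contractile genes lay in the top 10%, and the median SD was 0.190. Averaging all probe sets of a gene left 18 plasma proteins and 0 contractile genes in the top 10% and gave a median SD of 0.358. The list medians then lay at 97.8 for plasma proteins, 95.8 for globins and 94.5 for erythroid factors. With plain probe sets first they lay at 97.7, 88.2 and 95.2, and heart factors at 48.3. Median centring put the share of genes lowest on b at 24.6% and on c at 44.9%, against 40.5% and 29.1%, and quantile normalization at 31.3% and 37.7%; the cause was not tested. Leaving out each array put the median SD between 0.214 and 0.268, computed from 2 arrays. Of the 100 brightest genes, 67 were shared with the mean of probe sets and 72 with plain probe sets first. Actc1 lay between percentiles 65.4 and 80.0 with each array left out, and Afp at 95.3 with the mean of its probe sets. No paired analysis was possible because the wildtype arrays form 1 group and no comparison was tested. Brightness over background was not given, so how many dim genes were detected is not known.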

Other observations

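Several enzymes and transporters come in forms that tissues use differently, and the arrays showed clear preferences among them. Cox6a1 and Cox7a2, the general forms of their cytochrome oxidase subunits, had means of 12.64 and 12.77, while Cox6a2 and Cox7a1, the heart and skeletal muscle forms, had 4.25 and 3.82. Eef1a1 stood at 13.39 and Eef1a2, the form of muscle and neurons, at 5.14. Ldha, the lactate dehydrogenase chain of glycolytic tissue, had a mean of 12.61 and Ldhb, the chain that leads in the adult heart, of 8.14. Ckm, muscle creatine kinase, ran over 3.88, 1.57 and 4.40, and Ckb, the brain form, over 7.21, 7.09 and 7.73. Slc25a5 and Slc25a4, the general and the muscle form of the mitochondrial ADP/ATP carrier, had means of 12.34 and 10.80, so the muscle form was bright here too. Pklr, the pyruvate kinase gene of liver and red cells, stood at 9.83, 9.84 and 9.35 beside Pkm at 10.21, 10.43 and 10.60. Different probe sets are compared in each pair, so only differences of many log2 units are given as preferences. No array of a known embryonic heart was analysed. Which forms such a heart would show at this stage is not known from these data, so the pairs do not bear on the tissue label.

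Probe sets outside the gene ranking also held bright signals. Of 932 annotated to several genes 278, 29.8%, lay in the top 10% of all probe sets, and the highest stood at 13.61, above the brightest ranked gene. Of 9160 with no gene 216, 2.36%, lay in the top 10%, and the highest stood at 13.42. Their transcripts were not named in the annotation used.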
